A study of Mus musculus with 29 samples.

Results

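This comparison sets podocytes that the toxin hit directly, taken 4 days after the injection, against podocytes of other mice that the toxin did not target, taken 7 days after it, when those untargeted cells showed their own injury. Its members were chosen by sample title: the 4 TdTomato samples of day 4 and the 4 EGFP samples of day 7, which are 8 of the 29 arrays of the series. All of the mice were male Pod-hCD25T/G animals on a C57BL/6J background, aged 8 weeks. They were heminephrectomised and then given LMB2 at 25 ng per gram of body weight. Every array measured RNA of podocytes sorted by fluorescence on a FACSAria, from a mouse with a number of its own in the title. The labels do not say what the colours stand for. By general knowledge of this model, red TdTomato podocytes bear the human CD25 receptor and are open to the toxin, whereas green EGFP podocytes beside them do not bear it. The directly injured samples came from mice MC151, MC692, MC822 and MC823, and the secondarily injured samples from MC221, MC791, MC824 and MC943. Values of single arrays are always given in these orders. Each population was also set against its own 4 samples of day 0, taken before the injection from 4 mice that gave both populations. The labels do not state whether those mice had lost a kidney. The EGFP samples of day 4 (n = 4) and the TdTomato samples of day 7 (n = 2) are given beside the results, because population and day differ together in the main comparison and cannot be told apart within it.

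LMB2 is an immunotoxin: an antibody fragment that binds human CD25, joined to a Pseudomonas exotoxin that enters the cell and stops the elongation step of translation. Podocytes are the epithelial cells that wrap the glomerular capillaries. Their foot processes are held open by an actin skeleton and joined by the slit diaphragm, and they scarcely divide. When they are lost, the podocytes that remain can be damaged in turn, a process known as secondary podocyte injury. Desmin, encoded by Des, is a widely used marker of injured podocytes in rodents. Synaptopodin, encoded by Synpo, organises foot process actin, and survivin, encoded by Birc5, serves chromosome segregation and blocks cell death.

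Each value is the log2 of a probe's signal over its array's 75th percentile, so that 0 is the level of that percentile, and a difference of 1 is a factor of 2. Differences carry the standard error of limma, and adjusted p-values are those of limma with Benjamini-Hochberg adjustment over 15626 genes. A gene is called at an adjusted p under 0.05. Between 48.2% and 65.5% of the probes lay well above background on an array and none was saturated, and the number of arrays limits the precision. The scanner files of both day 7 samples of mouse MC221, EGFP and TdTomato, did not match the authors' deposited columns for them, so which array belongs to which sample is not settled. Counts are therefore also given without the secondary MC221 array. The TdTomato array of MC221 is 1 of the 2 TdTomato arrays of day 7, and without it Des stood at 1.28 there in place of 1.07 and Birc5 at 1.81 in place of 1.57. The direct sample MC823 held far more proximal tubule signal than the other arrays. The podocyte label held in both groups: the summed signal of 20 podocyte identity genes was 1730 to 2160 in direct and 2510 to 3020 in secondary samples, in units of the 75th percentile. In sorted RNA, fewer cells of a type and less RNA per cell cannot be told apart.

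The 2 injuries left transcriptomes that differed for most of the genes measured. Of 15626 genes, 3273 (20.9%) were higher and 5676 (36.3%) lower in directly injured podocytes, with a median difference over all genes of -0.28. Lower genes were more numerous and differed less, and higher genes were fewer and differed more: 2582 genes were higher by 2-fold or more and 1748 lower, but at 8-fold or more 905 were higher and 35 lower. All 4 direct arrays lay above all 4 secondary arrays for 2908 genes (18.6%) and below them for 5116 genes (32.7%). Well above background on all 4 arrays of 1 group and on none of the other were 615 genes in direct and 12 genes in secondary podocytes. Correlations between arrays over genes were 0.956 to 0.979 within the direct group, 0.972 to 0.986 within the secondary group and 0.878 to 0.908 between them. Without MC221 there were 3308 higher and 5420 lower genes, and without MC823 3193 and 5543. Counts over gene lists are to be read against the 20.9% and 36.3% of all genes, and no list was tested against these shares. Of 158 called genes that are named here, Wt1 and Fas lost their call without MC221.

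**Figure D1:**
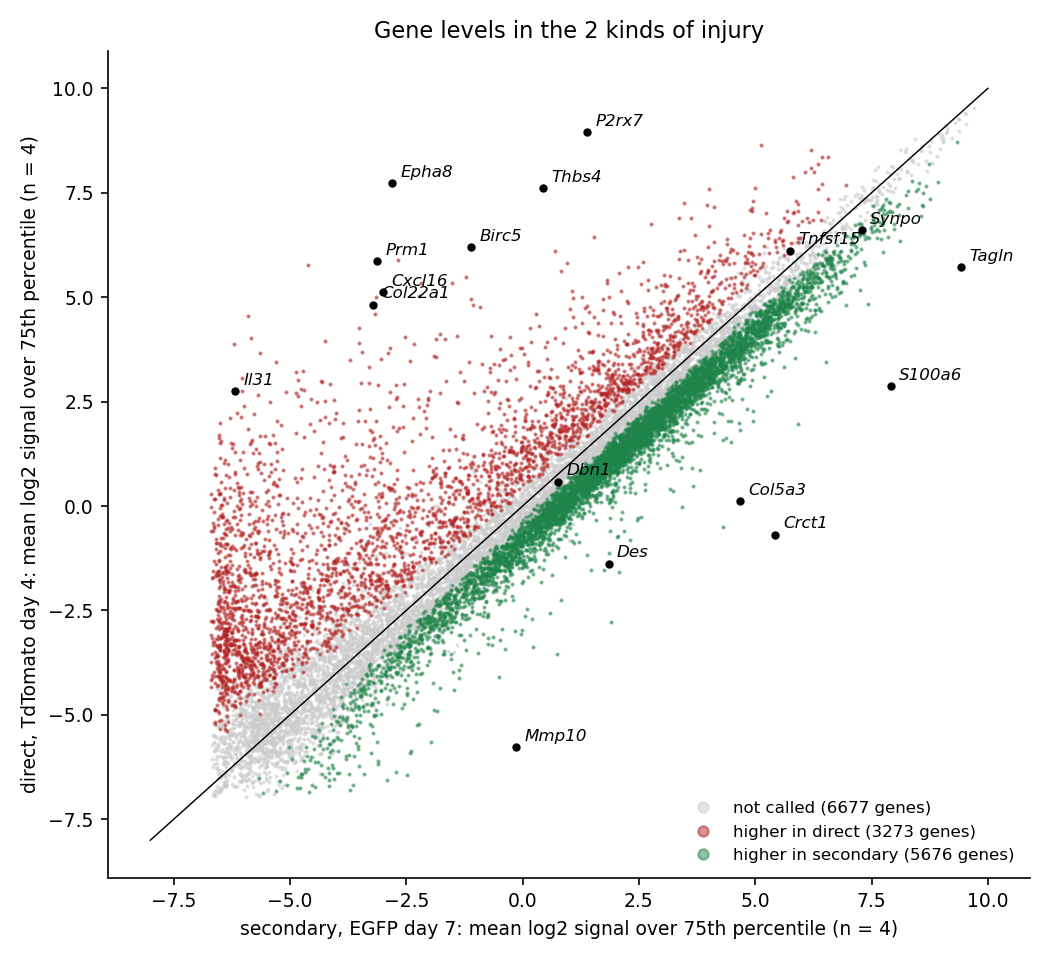
Mean log2 signal relative to the array's 75th percentile in secondary day 7 samples (horizontal axis, n = 4) and in direct day 4 samples (vertical axis, n = 4), with 1 point for each of 15626 genes and colours for the 3273 genes called higher and the 5676 called lower in direct. A cloud of genes rises far above the diagonal at the low end of the secondary axis, while the genes below the diagonal stay closer to it.

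The 3 genes that mark the comparison went 3 ways. Des was -1.91, -1.34, -1.45 and -0.82 on the direct arrays and 1.30, 1.64, 2.07 and 2.40 on the secondary arrays, against -1.52 and -1.63 on average before the injection. Every secondary array was above every direct array, and the direct arrays lay around the level before injection. The difference was -3.23 ± 0.26 (adjusted p = 4.1e-10), 9.39-fold, and within the 3 slides that held both groups it was -3.69 to -2.99. Desmin rose by 3.48 ± 0.26 from day 0 in secondary podocytes, and its change of 0.14 ± 0.26 in direct podocytes was not called (adjusted p = 0.66). EGFP podocytes of day 4 stood at -0.55 ± 0.37 (SD, n = 4) and TdTomato podocytes of day 7 at 1.07 ± 0.30 (SD, n = 2), so the higher level was seen in both populations at day 7.

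Birc5 stood at the opposite pole. It read 6.45, 6.18, 6.13 and 6.01 on the direct and -0.80, -1.25, -0.94 and -1.46 on the secondary arrays, and the groups were far apart. The difference was 7.30 ± 0.27 (adjusted p = 2e-15), 158-fold, with 7.26 to 7.43 within slides. It rose in both populations relative to day 0, by 8.53 in direct and 1.20 in secondary podocytes. It was -0.47 in EGFP podocytes of day 4 and 1.57 in TdTomato podocytes of day 7.

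Synpo was 6.39, 6.38, 6.75 and 6.86 in direct and 7.45, 7.23, 7.31 and 7.19 in secondary samples, so that the groups did not overlap although the difference was small. It was lower in direct podocytes (-0.70 ± 0.14, adjusted p = 0.00017), with -1.06 to -0.50 within slides. The change from day 0 was -1.07 in direct podocytes, past the test, and the secondary change of -0.25 was not called (adjusted p = 0.34). The change from day 0 differed between the groups by -0.82 for Synpo, -3.33 for Des and 7.33 for Birc5, each past the test of that difference.

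**Figure D2:**
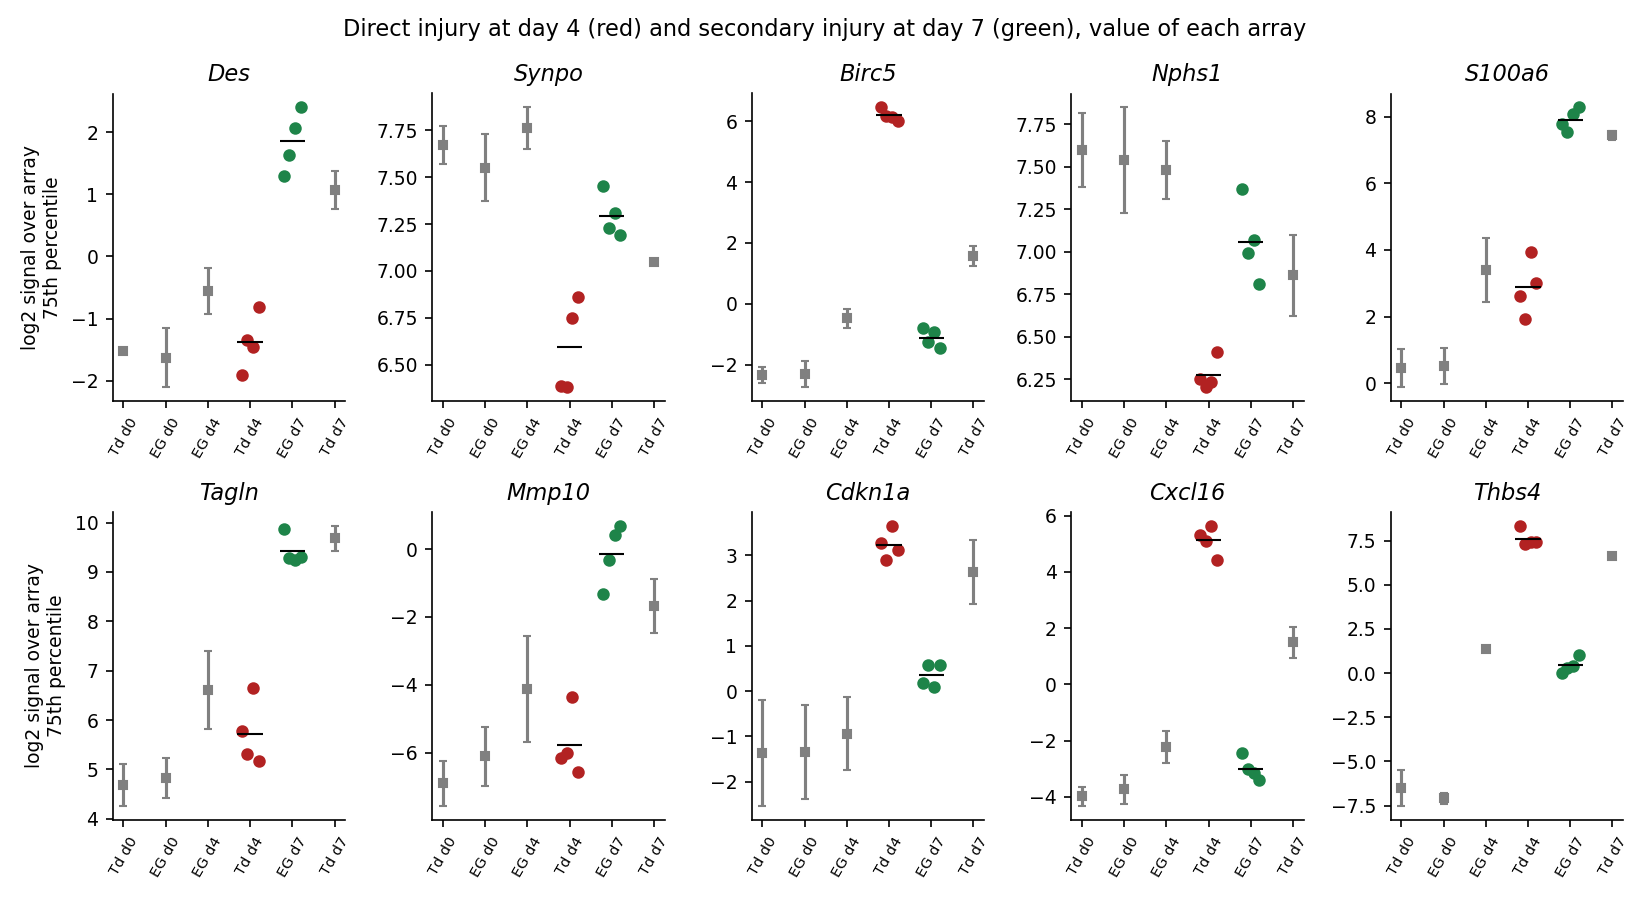
Log2 signal relative to the array's 75th percentile (vertical axis, own scale in each panel) of 10 genes, with red points for the 4 direct day 4 arrays, green points for the 4 secondary day 7 arrays, black bars for their means, and grey squares with bars for mean ± SD in TdTomato (Td) and EGFP (EG) podocytes of the other groups. Des, Synpo, Nphs1, S100a6, Tagln and Mmp10 are higher on all 4 green than on all 4 red points, and Birc5, Cdkn1a, Cxcl16 and Thbs4 are lower.

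Genes of podocyte identity were lower in direct injury at day 4 than in secondary injury at day 7. Nphs1, which encodes nephrin of the slit diaphragm, was 6.25, 6.20, 6.23 and 6.41 in direct and 7.37, 6.99, 7.07 and 6.81 in secondary podocytes, a difference of -0.79 ± 0.17 without overlap. Podocalyxin, Podxl, the anionic coat protein of the foot process, was lower (-1.04 ± 0.28), and the call ended under quantile scaling (-0.88, adjusted p = 0.054). The transcription factor Wt1 was lower (-0.57 ± 0.21, adjusted p = 0.022), and its call ended without MC692 (-0.54), MC822 (-0.52) or MC221 (-0.51). None of Nphs1, Podxl and Wt1 was called against day 0 in secondary podocytes, at -0.48, 0.01 and -0.38, and all fell in direct podocytes (-1.33, -1.20 and -1.12).

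In the slit diaphragm list, 11 of 19 measured genes were lower and 0 higher in direct than in secondary podocytes, with a median of -0.53 against -0.28 for all genes. The nephrin relative Kirrel (-1.31), the phospholipase Plce1 (-0.90) and the adaptor Nck2 (-0.88) were among them. The calcium channel Trpc6 was above background on none of the direct arrays and on 3 of the secondary arrays, at least 2.25-fold higher in the latter, although its groups overlapped. Only 7 slit diaphragm genes were called lower under quantile scaling. Of 24 genes of the foot process surface and actin, 20 were lower and 0 higher (median -0.86). The actin crosslinker Actn4 (-1.29), the intermediate filament gene Nes (-1.12), non-muscle myosin Myh9 (-1.15) and the membrane protein Tm4sf1 (-1.17) led that list. Against their own day 0, 20 of these 24 genes fell in direct podocytes, where 35.9% of all genes fell, and 1 fell in secondary podocytes, where 1.92% did.

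Of 15 podocyte transcription factors 11 were lower and 2 higher in direct podocytes. Foxc1 (-1.13) and Osr2 (-1.70, above background on 1 direct array) were lower. The glucocorticoid-responsive factor Klf15 was higher by 1.59 and the repressor Zhx2 by 1.56, with overlapping groups for Zhx2. Klf15 read -1.86, 0.61, 0.32 and -0.03 on the secondary arrays. Its difference was 3.61 within the slide of MC221 and 0.99 and 1.05 within the others. Against day 0 it was called in neither direct (0.26) nor secondary podocytes (-1.43). Of 23 genes of the glomerular basement membrane and its receptors, 13 were lower and 1 was higher, and without MC692 3 were higher. The laminin chain Lama5 was the higher one (1.23 ± 0.34). The integrin Itgb1 (-1.83 ± 0.22), which fell from day 0 in direct (-0.72) and rose in secondary podocytes (1.11), and the collagen chains Col4a5 (-1.37) and Col4a3 (-1.20) were lower.

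The genes most in excess in secondary podocytes included genes known from epithelial injury, the contractile skeleton and cornifying epithelia. S100a6, a calcium-binding protein, was 2.62, 1.93, 3.94 and 3.02 on the direct and 7.78, 7.53, 8.07 and 8.28 on the secondary arrays. It was 32.9-fold higher in secondary podocytes on average (-5.04 ± 0.43, adjusted p = 1.1e-09). Tagln, the smooth muscle protein transgelin, read 5.78, 5.31, 6.64 and 5.18 in direct and 9.86, 9.29, 9.24 and 9.31 in secondary podocytes, a 13-fold difference (-3.70 ± 0.34). Direct MC822 was the highest direct array for both S100a6 and Tagln. The rule that named the genes of greatest excess asked for groups without overlap and for signal above background on all secondary arrays. Neither trait is therefore a result for these genes.

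The greatest excess was that of Crct1, which lies in the epidermal differentiation complex. It was -0.65, -2.27, 1.18 and -1.0 in direct and 5.42, 5.53, 4.72 and 6.07 in secondary samples, 69.5-fold higher in the latter (-6.12 ± 0.61). It had risen from day 0 in both populations, by 5.11 in direct podocytes and at least 1470-fold in secondary podocytes, and stood at 5.17 in TdTomato podocytes of day 7. The stromelysin Mmp10 was well above background on all secondary and no direct arrays, at least 28.3-fold higher (adjusted p = 1.1e-07). The mesothelial surface protein Msln (at least 5.52-fold) and the Wnt inhibitor Apcdd1 (at least 4.27-fold) had the same pattern of detection. Other genes of this group were the secreted protein Angptl7 (-4.68), the fibrillar collagen Col5a3 (-4.56), the muscle caveolin Cav3 (-4.28), the phosphodiesterase-like Gdpd2 (-4.80) and the cornified envelope protein Sprr1a (-3.66, above background on 1 direct array). Gdpd2 rested largely on secondary MC791, which was at 9.02 while the other 3 secondary arrays were at 2.07 to 3.08.

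Of 26 measured genes of podocyte and epithelial injury, 18 were lower and 2 higher in direct podocytes (median -1.21). The chaperone clusterin, Clu, was lower (-3.07 ± 0.48) and so was the protease inhibitor Timp1 (-2.88 ± 0.33), although both had risen in direct podocytes as well, by 1.60 and 3.05. The hyaluronan receptor Cd44 (1.96) and the EGF receptor ligand Hbegf (1.65) were the 2 higher in direct. Against own day 0, 15 of the 26 rose and 0 fell in secondary podocytes, where 5.34% of all genes rose, while 9 rose and 6 fell in direct podocytes, where 21.4% rose. Of 40 focal adhesion and contractile genes, 30 were lower and 2 higher in direct podocytes (median -1.13). Smooth muscle actin Acta2 (-2.78 ± 0.41), the tropomyosin Tpm2 (-3.0 ± 0.28) and caveolin-1, Cav1 (-2.97 ± 0.50), followed Tagln. Acta2 was -1.29 to 0.10 on the direct and 1.83 to 2.52 on the secondary arrays, and it was at 2.13 in TdTomato podocytes of day 7. The integrin Itgb6 (5.50, above background on 1 secondary array) and the enteric actin Actg2 (4.69, above background on 2) were the 2 higher in direct. From their own day 0, 20 of the 40 rose and 0 fell in secondary podocytes, where 5.34% of all genes rose and 1.92% fell. In direct podocytes 10 rose and 10 fell, where 21.4% of all genes rose and 35.9% fell. Desmin, Tagln and Acta2 are also markers of mesangium and smooth muscle. The summed signal of 15 such markers was 40.9 to 54.1 in secondary and 13.8 to 23.8 in direct samples, with 4 of them lower and 5 higher in direct. At day 0 the sum was 27.2 to 43.3 in EGFP and 25.3 to 46.8 in TdTomato samples. The part of these markers in the result was not tested.

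The genes most in excess in direct podocytes included several that are known from other tissues. Epha8, an ephrin receptor of the nervous system, was 8.65, 8.01, 7.35 and 6.92 on the direct and -2.32, -2.92, -2.63 and -3.36 on the secondary arrays, a 1490-fold difference (10.54 ± 0.71, adjusted p = 2.2e-11). Prm1, the protamine that packs sperm DNA, was 6.41, 5.40, 6.12 and 5.54 in direct and -3.16, -3.71, -2.61 and -3.01 in secondary podocytes (8.99 ± 0.56). Il31, a cytokine of T cells, was 3.22, 2.91, 2.49 and 2.38 in direct samples and well above background on no secondary array, at least 171-fold higher (adjusted p = 1e-12). The rule that named these genes asked for groups without overlap.

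The others with the greatest excess were the prolactin relative Prl2a1 (at least 596-fold), the Hedgehog effector Gli1 (at least 373-fold), the membrane protein gene Tmem151b (at least 411-fold), the epithelial ETS factor Elf5 (at least 215-fold) and the glutathione transferase gene Gstt4 (at least 172-fold). All 5 were above background on no secondary array. The protease gene Tmprss9 (10.38), liver glycogen synthase Gys2 (9.30) and the keratinocyte kinase gene Ripk4 (8.75) were above background on 1 secondary array each, and Zmynd15, a repressor of male germ cells (8.55), on all 4. TdTomato podocytes of day 7 stood between the groups for these genes, for example at 2.77 for Prm1, 4.22 for Epha8 and 1.59 for Il31. Of the 12 genes, Epha8 and Prm1 had also risen in secondary podocytes, Epha8 at least 4.87-fold and Prm1 by 2.90, from day 0 arrays of which 1 was above background.

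Stretches of 250 bases before the annotated start are shown for genes in excess in either group, to let their CG dinucleotides, set in capitals, be seen. They are RefSeq sequences of build GRCm38.p6, written 5′ to 3′ on the strand of the gene. Prm1 (chr16:10796824-10797073 on the minus strand) and Il31 (chr5:123482624-123482873 on the minus strand), higher in direct podocytes, hold no CG, and Birc5 (chr11:117848987-117849236 on the plus strand) and Epha8 (chr4:136956817-136957066 on the minus strand), also higher there, hold 19 and 46. S100a6 (chr3:90612644-90612893 on the plus strand), Timp1 (chrX:20869916-20870165 on the plus strand) and Des (chr1:75360042-75360291 on the plus strand), higher in secondary podocytes, hold 3, 6 and 10.
Prm1: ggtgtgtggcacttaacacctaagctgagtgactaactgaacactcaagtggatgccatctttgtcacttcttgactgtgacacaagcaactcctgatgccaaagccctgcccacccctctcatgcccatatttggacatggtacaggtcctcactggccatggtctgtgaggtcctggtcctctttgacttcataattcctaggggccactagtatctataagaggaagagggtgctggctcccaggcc
Il31: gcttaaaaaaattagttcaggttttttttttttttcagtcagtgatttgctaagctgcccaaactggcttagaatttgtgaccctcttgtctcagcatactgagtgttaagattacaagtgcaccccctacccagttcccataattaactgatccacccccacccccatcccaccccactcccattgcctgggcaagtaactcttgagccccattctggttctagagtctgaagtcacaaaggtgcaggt
Birc5: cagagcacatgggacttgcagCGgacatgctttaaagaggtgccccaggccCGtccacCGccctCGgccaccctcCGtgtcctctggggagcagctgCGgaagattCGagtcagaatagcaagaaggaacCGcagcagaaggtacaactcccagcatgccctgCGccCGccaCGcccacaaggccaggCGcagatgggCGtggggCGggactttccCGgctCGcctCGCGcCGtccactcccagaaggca
Epha8: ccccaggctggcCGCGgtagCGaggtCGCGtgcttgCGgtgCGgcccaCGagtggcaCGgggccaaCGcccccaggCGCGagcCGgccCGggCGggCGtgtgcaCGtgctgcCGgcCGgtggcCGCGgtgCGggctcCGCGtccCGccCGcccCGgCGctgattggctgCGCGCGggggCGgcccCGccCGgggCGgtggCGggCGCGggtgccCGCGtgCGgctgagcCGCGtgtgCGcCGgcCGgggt
S100a6: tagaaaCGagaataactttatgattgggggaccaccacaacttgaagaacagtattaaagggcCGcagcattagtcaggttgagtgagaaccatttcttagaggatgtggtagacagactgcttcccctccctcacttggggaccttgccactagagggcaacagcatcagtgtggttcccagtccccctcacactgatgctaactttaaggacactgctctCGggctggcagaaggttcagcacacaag
Timp1: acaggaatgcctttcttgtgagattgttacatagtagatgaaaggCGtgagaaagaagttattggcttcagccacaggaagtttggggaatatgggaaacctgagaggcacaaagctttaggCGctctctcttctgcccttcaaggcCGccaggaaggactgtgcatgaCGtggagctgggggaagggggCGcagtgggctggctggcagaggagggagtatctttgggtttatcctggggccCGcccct
Des: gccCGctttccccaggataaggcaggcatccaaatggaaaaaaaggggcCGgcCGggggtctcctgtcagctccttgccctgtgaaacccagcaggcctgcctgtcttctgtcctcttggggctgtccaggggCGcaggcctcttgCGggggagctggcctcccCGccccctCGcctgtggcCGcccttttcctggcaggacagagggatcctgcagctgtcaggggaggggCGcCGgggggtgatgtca

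Over the 12406 of 15626 genes with such a stretch, the median number of CG was 14 (quartiles 6 and 21). It was 11 for genes higher in direct podocytes, 6 for the 681 of them higher by 8-fold or more, and 5 for the 479 that were above background on all direct and no secondary arrays. Genes above background on no secondary array that were not higher in direct podocytes had a median of 4 (573 genes). Genes lower in direct podocytes had a median of 16, and the 400 that rose in secondary and were lower in direct podocytes had 15. The letters TATAAA, searched on both strands, stood in 8.71% of all stretches and in 14.0% of those of the 8-fold group. Among the 400 genes that rose in secondary and were lower in direct podocytes the share was 8.75%. GGGCGG, the core of an Sp1 motif that itself holds a CG, stood in 53.1%, 38.9% and 65.8%, and TGANTCA, the AP-1 motif, in 4.93%, 6.90% and 6.00%. In the 573 genes above background on no secondary array and not higher in direct podocytes these shares were 20.1% for TATAAA, 30.9% for GGGCGG and 9.42% for TGANTCA, each further from all genes than in the 8-fold group. A match of letters is a description of sequence and not a binding site.

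Among cell cycle genes, only some members were in excess in direct podocytes. Bub1b, a kinase of the spindle checkpoint, was 1.54, 2.17, 3.08 and 2.39 in direct and -3.58, -3.59, -3.48 and -3.38 in secondary samples (5.80 ± 0.46). Of 30 mitosis genes 15 were higher and 2 lower in direct (median 0.60), with the spindle protein Nusap1 (5.53, above background on 2 secondary arrays) and cyclin A2, Ccna2 (4.86, likewise on 2), next to Birc5 and Bub1b. The lower ones were the passenger protein Incenp (-0.87) and the checkpoint protein Mad2l1 (-0.81), whose call ended with the mean of probes. The number of lower genes was 1 to 5 under other settings. The proliferation marker Mki67 was not called (0.40, adjusted p = 0.24). The mitotic kinase Cdk1 was above background on none of the direct arrays and on 1 secondary array. Relative to day 0, 14 of the 30 rose in direct podocytes, where 21.4% of all genes rose, and 1, Birc5, in secondary podocytes, where 5.34% did.

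Of 39 DNA replication genes, 10 were higher and 15 lower in direct podocytes (median -0.34), shares near the 20.9% and 36.3% of all genes. Thymidine kinase Tk1 was at least 10.8-fold higher, the ribonucleotide reductase subunit Rrm2 was higher by 3.94 (above background on 2 secondary arrays), the replication factor Mcm10 by 3.35 and the flap nuclease Fen1 by 1.66. The other reductase subunit, Rrm1, was lower (-1.31), and so was the transcription factor E2f1 (-1.33). Of 19 G1 regulators 8 were lower and 1 higher. Cyclin D1, Ccnd1, was lower (-2.72 ± 0.30), having risen in secondary podocytes (3.38), and was not called in direct podocytes (0.56), and its partner Cdk6 was lower (-1.88, above background on 1 direct array). The higher one was the inhibitor Cdkn1a, at 3.28, 2.89, 3.65 and 3.13 in direct and 0.19, 0.58, 0.08 and 0.58 in secondary samples (2.88 ± 0.50, adjusted p = 4e-05). It rose in both, by 4.61 and 1.71. The number of higher G1 genes was 2 without MC151, MC221 or MC943.

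Targets of p53 had 9 of 25 higher and 8 lower in direct podocytes (median 0.19), and without MC692 or under quantile scaling 5 were lower. Beside Cdkn1a stood the death receptor Tnfrsf10b (2.26), the pro-apoptotic Pmaip1 (2.06, above background on 3 secondary arrays) and the death receptor Fas (0.93), whose call ended with the authors' matrix and without MC822, MC823 or MC221 (0.71 to 0.87). Lower were the adhesion protein Perp (-1.23) and the kinase Plk2 (-1.54, with overlap), whose call ended without MC692 or MC943 (-1.20 and -1.26). Of 31 genes of regulated cell death 3 were higher and 18 lower. The BH3-only gene Hrk was at least 2.11-fold higher, a call that ended with normexp background correction, and the pore protein gasdermin D, Gsdmd, was lower (-1.69 ± 0.17).

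Inflammatory genes rose in part in each injury. Of 33 NF-kB and chemokine genes 14 were higher and 6 lower in direct than in secondary podocytes (median 0.44). Against own day 0, 16 of the 33 rose in direct podocytes, where 21.4% of all genes rose, and 16 in secondary podocytes, where 5.34% did, with 1 and 0 falling. The chemokine Cxcl16 was 5.32, 5.11, 5.63 and 4.43 in direct and -2.45, -3.01, -3.15 and -3.38 in secondary samples, 278-fold higher (8.12 ± 0.46), and was not called against day 0 in secondary podocytes (0.73). The chemokine Ccl5 was higher in direct by 3.55 ± 0.73, and Tnf and the neutrophil chemokine Cxcl2 were at least 4.46-fold and at least 4.69-fold higher. The NF-kB subunits Nfkb2 (2.24) and Relb (2.22) and the adhesion receptor Icam1 (2.09) were higher too. The interferon-induced chemokine Cxcl10 did not differ past the test (0.47, 95% interval -0.46 to 1.41), having risen by 4.97 and 4.40. Lower in direct were the NF-kB inhibitor Nfkbie (-2.38), the macrophage growth factor Il34 (-2.10) and the membrane chemokine Cx3cl1 (-1.50).

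Interferon-stimulated genes had 7 of 29 higher and 10 lower, with a median of -0.27 against -0.28 for all genes, and these shares too were near the 20.9% and 36.3% of all genes. The ubiquitin-like Isg15 was higher by 3.52 and Ifi44 by 2.86 (above background on 1 secondary array), while the RNA sensor Ifih1 (-1.08) and Parp9 (-1.21) were lower. Of 18 genes of class I antigen presentation 2 were higher and 8 lower, with the light chain B2m at 1.14 and the class Ib gene H2-M3 at -1.55. Complement had 7 of 18 higher and 4 lower, and 4 higher with normexp and 3 with a strict filter on dim probes. The component C4b was higher by 3.24 (above background on 3 secondary arrays), and the protease C1s1 was lower (-2.11).

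Matrix genes included members in excess in either group. Thrombospondin 4, Thbs4, was 8.33, 7.30, 7.44 and 7.40 in direct and -0.01, 0.29, 0.43 and 1.04 in secondary samples, 145-fold higher (7.18 ± 0.38, adjusted p = 3.7e-13). It was above background on no array of day 0 and rose at least 6630-fold in direct and at least 46.2-fold in secondary podocytes. The minor collagens Col22a1 (8.05) and Col7a1 (4.47) were higher in direct. The fibrillar collagens Col5a3 and Col1a1 (-3.60) and the growth factor Tgfb3 (-3.46 ± 0.36) were lower, while Tgfb2 did not differ past the test (-0.32, 95% interval -1.15 to 0.51) and rose in both, by 4.01 and 4.20. Over the list of interstitial matrix and TGF-beta genes, 7 of 32 were higher and 15 lower (median -0.83). Against own day 0, 14 rose and 0 fell in secondary podocytes, where 5.34% of all genes rose and 1.92% fell. In direct podocytes 10 rose and 5 fell, where 21.4% of all genes rose and 35.9% fell.

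Of 26 genes of proteases, their inhibitors and plasminogen activation, 6 were higher and 13 lower. The collagenase Mmp13 was at least 12.2-fold, the gelatinase Mmp9 at least 4.87-fold and cathepsin S, Ctss, at least 6.79-fold higher in direct podocytes. The other gelatinase, Mmp2, was lower (-2.91 ± 0.34), beside Mmp10. Among growth factors and EGF receptor ligands 6 of 27 were higher and 6 lower. The ligand Nrg1 (5.43 ± 0.47) and the receptor Egfr (2.69) were higher in direct podocytes, and Pdgfa was lower (-2.81).

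Channels and receptors of the membrane gave some of the steepest differences. P2rx7, an ATP-gated channel, was 9.58, 8.85, 8.80 and 8.57 in direct and 0.99, 1.06, 2.18 and 1.30 in secondary samples, 190-fold higher (7.57 ± 0.40). It rose in both, by 11.94 and 4.38, and read 7.75 in TdTomato podocytes of day 7. Its relative P2rx5 was lower in direct (-3.19 ± 0.34), having risen by 2.38 in direct and 5.65 in secondary podocytes, and the ATP-release channel Panx1 was lower (-1.38). In the list of ATP-gated and potassium channels 7 of 17 were higher and 3 lower, with 4 higher without MC692, without MC943, with normexp or with only the groups compared. Eph receptors and ephrins had 6 of 19 higher and 6 lower, with the ligand Efnb3 higher (3.35) and the receptors Ephb3 (-1.68) and Epha5 (-1.68) lower. Keratin, desmosome and cornified envelope genes had 5 of 22 higher and 8 lower, near the 20.9% and 36.3% of all genes. With normexp 3 were higher. Keratin 17, Krt17, was at least 16.1-fold and the plakophilin Pkp1 22-fold higher (4.46) in direct podocytes.

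Of 32 immediate early genes, 7 were higher and 14 lower, again near the shares of all genes (20.9% and 36.3%). The phosphatase Dusp4 was at least 19-fold higher, and the transcription factors Egr4 (5.28, above background on 3 secondary arrays), Maff (3.60) and Myc (1.84) were higher, while the synaptic gene Arc was lower (-2.08).

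**Figure D3:**
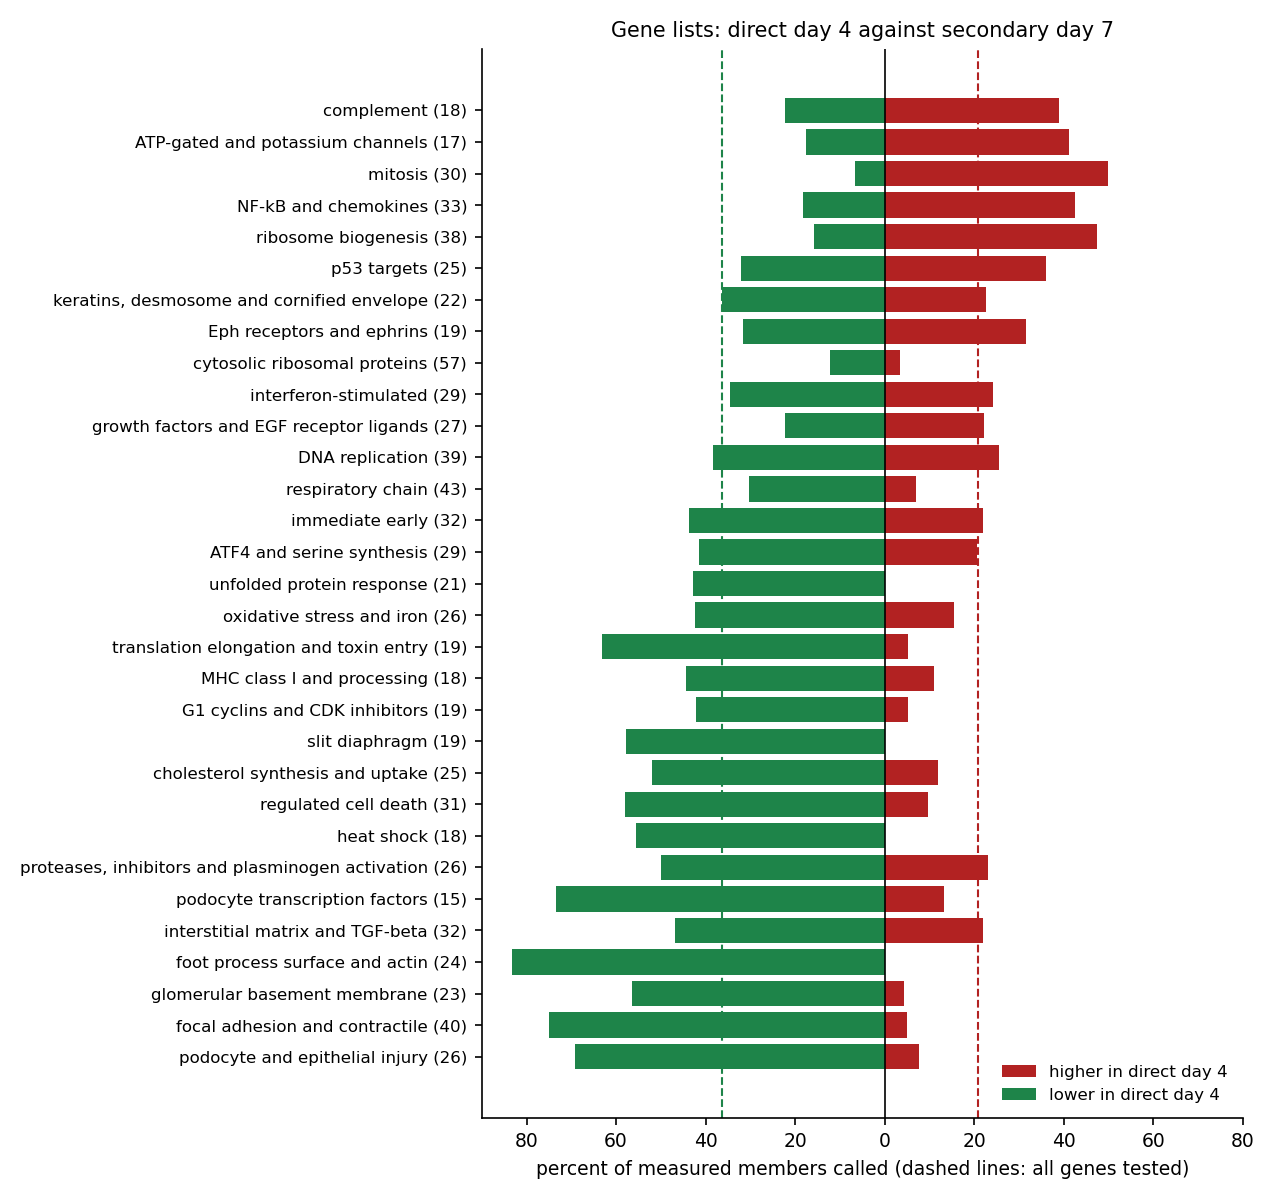
Percentage of the measured genes of each list (rows, with the number measured) called higher (red, to the right) or lower (green, to the left) in direct day 4 than in secondary day 7, with dashed lines at the 20.9% and 36.3% of all genes tested. The longest bars to the lower side are those of foot process genes (20 of 24) and focal adhesion and contractile genes (30 of 40), and mitosis (15 of 30) and ribosome biogenesis genes (18 of 38) have long bars to the higher side.

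No member of the unfolded protein response (0 of 21 higher, 9 lower) or heat shock lists (0 of 18 higher, 10 lower) was higher in direct podocytes. The endoplasmic chaperone Hspa5 differed by -0.16 (adjusted p = 0.35) and the disulphide isomerase Pdia6 was lower (-0.65), but under quantile scaling 1 unfolded protein response gene was lower and the call of Pdia6 ended. The inducible chaperone Hspa1a was lower (-2.57 ± 0.78), with direct MC692 at 0.25 and the other direct arrays at 3.33 to 3.82. Hspb1 (-1.66), the cochaperone Dnajb1 (-1.61) and the crystallin Cryab (-1.21) were lower. Against own day 0, 18 of 21 unfolded protein response genes fell in direct podocytes and 3 in secondary podocytes. Of 18 heat shock genes 11 fell in direct and 0 in secondary podocytes. Among all genes 35.9% fell in direct and 1.92% in secondary podocytes.

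Of 29 ATF4 targets of amino acid stress, 6 were higher and 12 lower, near the 20.9% and 36.3% of all genes. The hormone gene Fgf21 was at least 7.49-fold higher in direct podocytes, and Atf5 (2.22) and the arginine transporter Slc7a3 (2.07) were higher. The serine synthesis enzymes Psat1 (-1.90 ± 0.24) and Phgdh (-2.15 ± 0.29) were lower. Psat1 rose in both populations (2.26 and 4.36), and Phgdh rose in secondary podocytes (2.39) and was not called in direct podocytes (0.33). Atf4 itself was not called (0.41).

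The elongation factor that the exotoxin modifies, encoded by Eef2, was at 6.61, 6.28, 6.72 and 6.33 in direct and 6.52, 6.30, 6.46 and 6.57 in secondary samples, and its mRNA did not differ past the test (0.02, 95% interval -0.37 to 0.42). Of 19 genes of elongation and toxin entry 1 was higher, the diphthamide enzyme Dph7 (0.51), and 12 were lower, among them the toxin-cleaving protease Furin (-1.22). Ribosome biogenesis genes had 18 of 38 higher and 6 lower (median 0.37). Against day 0, 17 rose in direct podocytes, where 21.4% of all genes rose, and 0 in secondary podocytes, where 5.34% did. The nucleolar proteins Gnl3 (3.36 ± 0.18), Nop58 (2.05) and Npm1 (1.5) led. Lower genes numbered 3 without MC791 or MC943 and 10 with the slide as a block. Of 57 cytosolic ribosomal proteins 2 were higher and 7 lower, with Rpl18 at 1.72 and Rps24 at -0.83. These counts varied with the setting, with 8 higher and 11 lower under quantile scaling, 7 higher and 17 lower with the slide as a block, and 11 lower with the mean of probes.

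Of 43 respiratory chain genes 3 were higher and 13 lower, and 25 were lower with the slide as a block. Cholesterol genes had 3 of 25 higher and 13 lower, with the reductase Tm7sf2 at 2.29 and squalene epoxidase, Sqle, at -1.14, the latter having risen in both (0.87 and 1.86). Oxidative stress and iron genes had 4 of 26 higher and 11 lower. Haem oxygenase, Hmox1, was higher by 1.47 and the glutathione transferase Gstm1 by 2.35, and sulfiredoxin, Srxn1, was lower (-1.18).

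Set against their own day 0, direct podocytes had 3347 higher genes (21.4%) and 5611 lower genes (35.9%), and secondary podocytes had 834 higher (5.34%) and 300 lower genes (1.92%). The day 0 samples of both populations came from the same 4 mice. By the test of the difference between the 2 changes, the change lay higher in direct podocytes for 2433 genes (15.6%) and lower for 3832 (24.5%). That test ignores the pairing at day 0. With the mouse as a random replicate block these 2 counts were 2831 and 5042. Without MC221 the secondary counts were 777 and 288, and without MC943 they were 623 and 161. With the slide as a block they were 1436 and 1164, so that the higher share of these calls fell from 73.5% to 55.2%.

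The 834 genes that rose in secondary podocytes partly rose in direct podocytes too. There 372 of them rose (44.6% of the secondary and 11.1% of the direct rises), where 21.4% of all genes rose. A further 349 (41.8%) were not called, and 113 (13.5%) fell, where 35.9% of all genes fell. Of the 372, 134 were higher in direct than in secondary podocytes, 72 were lower and 166 were not called different. In all, 515 of the 834 (61.8%) were lower in direct than in secondary podocytes, where 36.3% of all genes were. The 834 were chosen for high values on the same day 7 EGFP arrays, so nothing is read from that share. The median change of the 834 genes was 1.47 in EGFP podocytes of day 7, which chose them, 1.33 in TdTomato podocytes of day 7 (1.34 without MC221), 0.52 in TdTomato podocytes of day 4 and 0.42 in EGFP podocytes of day 4. For the 905 genes higher in direct podocytes by 8-fold or more the same medians were 0.36, 2.52 (2.50 without MC221), 4.60 and 0.52. Both sets were chosen on these samples.

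**Figure D4:**
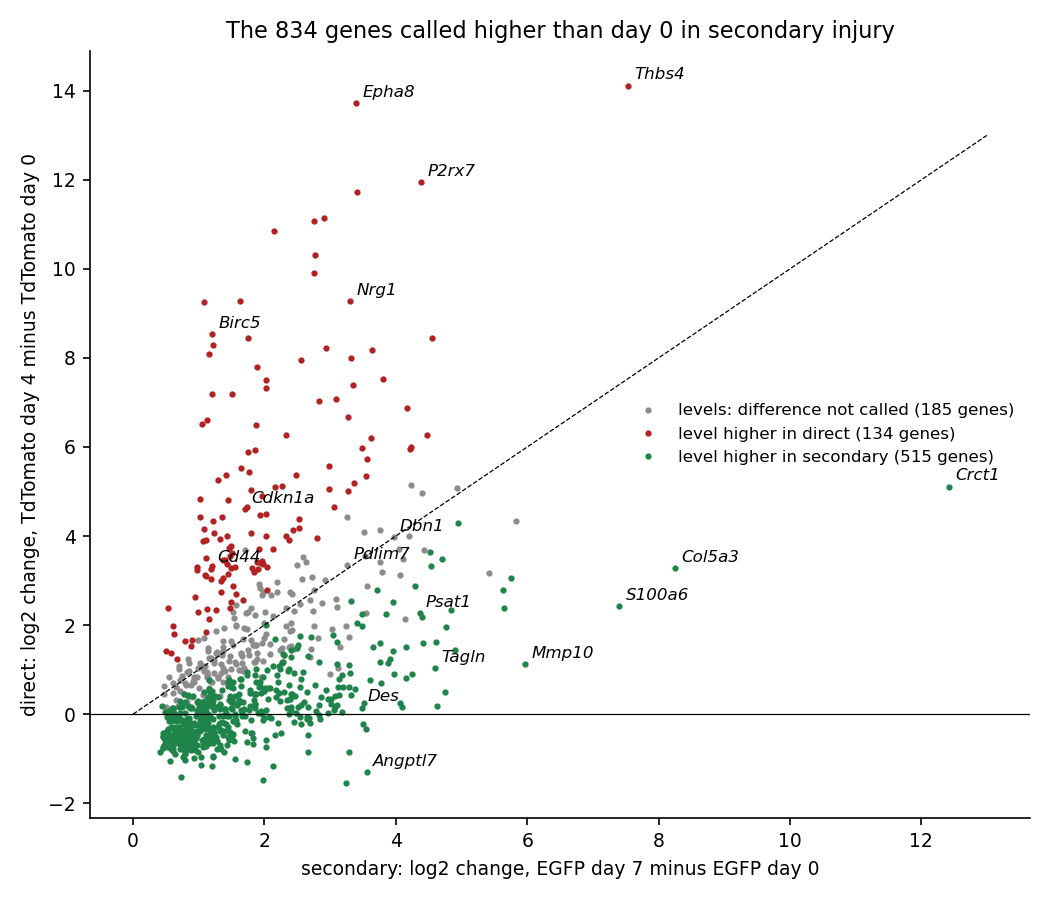
Log2 change from own day 0 in secondary day 7 (horizontal axis) and in direct day 4 podocytes (vertical axis) of the 834 genes that rose in secondary podocytes, 1 point each, with red for the 134 whose level was higher in direct, green for the 515 whose level was higher in secondary podocytes, grey for the others, and a dashed line of equal change. Most green points lie near or under 0 on the vertical axis, the level of day 0 in direct podocytes, and the red points lie above the dashed line.

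Some genes changed to a like extent in both injuries. With clone, model and predicted names passed over, 72 genes shared a rise and 155 a fall. For these the 95% interval of the direct minus secondary difference lay inside -1 to 1. Among all 15626 genes, such names included, the interval lay there for 4643. Drebrin, Dbn1, an actin-binding protein, was 0.91, 0.49, 1.04 and -0.10 in direct and 1.11, 0.90, 0.13 and 0.89 in secondary samples, with a difference of -0.18 (95% interval -0.73 to 0.38) and rises of 3.97 and 3.97. The groups overlapped throughout. The LIM protein Pdlim7 rose by 3.35 and 3.26, the TNF relative Tnfsf15 by 3.09 and 2.73, the actin regulator caldesmon, Cald1, by 2.21 and 1.86, and the immune surface protein Cd83 by 2.06 and 1.99. Hrct1, the adaptor Dapp1 and the proteoglycan phosphatase Pxylp1 were the others named by rank, with rises of 2.19 to 3.80. Shared falls were those of the adrenergic receptor Adra2c (-2.29 in direct and -2.27 in secondary podocytes), the calcium channel subunit Cacna2d2 (-1.61 and -1.66) and Pabpn1l (-2.01 and -2.09).

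Opposite calls against own day 0 were also made: 113 genes fell in direct and rose in secondary podocytes, and 36 did the reverse. The phosphodiesterase Pde10a rose in direct podocytes (2.18 ± 0.44) and fell in secondary podocytes (-1.50 ± 0.44), and so did Shisal1 (2.0 and -2.67) and the IGF-binding protein Igfbp1 (1.34 and -1.46). Angptl7 (-1.30 and 3.56) and the sulfatase Arsj (-1.49 and 1.98) fell in direct and rose in secondary podocytes. Lrrc24 was above background on no secondary array and was at least 2.12-fold higher in direct podocytes, a call that ended with normexp. Pde10a was 3.80, 4.17, 4.02 and 3.68 in direct and 0.56, -0.15, 0.23 and 0.05 in secondary samples, and the groups did not overlap.

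Markers of other cells were read in the same samples. Of 16 myeloid markers 7 were higher and 0 lower in direct podocytes, and their summed signal was 49.0 to 122 in direct and 22.1 to 40.2 in secondary samples. At day 0 that sum was 38.9 to 56.9 in TdTomato and 37.1 to 64.8 in EGFP samples. The integrin Itgax (at least 31.8-fold), the complement gene C1qa (at least 13.9-fold) and Aif1 (5.50, above background on 1 secondary array) were higher, and 7 markers were below background on all secondary arrays. The defining markers Ptprc (-4.55 and -4.67), Adgre1 (-4.58 and -4.44), Lyz2 (above background on 1 direct and 0 secondary arrays) and Tyrobp (on 2 and 0) were low in both groups and not called. Csf1r was not called either (0.26). Of 10 lymphocyte markers 4 were higher and 0 lower (summed 5.83 to 11.1 and 4.05 to 5.71), led by Cd79b, at least 30.5-fold higher. Of 8 erythrocyte and platelet markers 3 were higher and 0 lower (1.26 to 1.78 and 0.270 to 1.36), among them Itga2b (3.63, above background on 2 secondary arrays).

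Of 20 endothelial markers 10 were higher and 1 lower in direct podocytes, 18 higher without MC692 and 6 without MC822 or MC823. Robo4 was higher by 5.19 and Pecam1 by 1.81, Cldn5 was lower (-0.96), and Cdh5 (1.74, adjusted p = 0.17) and Emcn (2.11, adjusted p = 0.1) were not called. Their summed signal was 66.3 to 155 in direct and 136 to 169 in secondary samples. Of 18 proximal tubule markers 6 were higher and 0 lower, among them the transporter Slc13a3 by 4.85 (above background on 2 secondary arrays). Their summed signal was 5.43, 5.76, 9.65 and 238 in direct samples, the last in MC823, and 1.65 to 9.41 in secondary samples, and Lrp2 was not called (1.88). Of 12 distal nephron markers 4 were higher and 0 lower, with the water channel Aqp3 at least 61-fold higher. Their summed signal was 8.77 to 25.2 in direct and 3.28 to 34.2 in secondary samples, the highest in MC221, and Umod was not called (1.45). Parietal epithelial markers had 3 of 11 higher and 4 lower (18.6 to 40.9 and 38.1 to 55.0), with Pax8 lower (-1.75). Of the mesangial markers, Notch3 was higher by 6.35 (above background on 2 secondary arrays). Fibroblast markers had 5 of 8 higher and 2 lower, 3 higher without MC822 or MC823 (95.7 to 197 and 185 to 249). The part of these cells in the results was not tested.

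**Figure D5:**
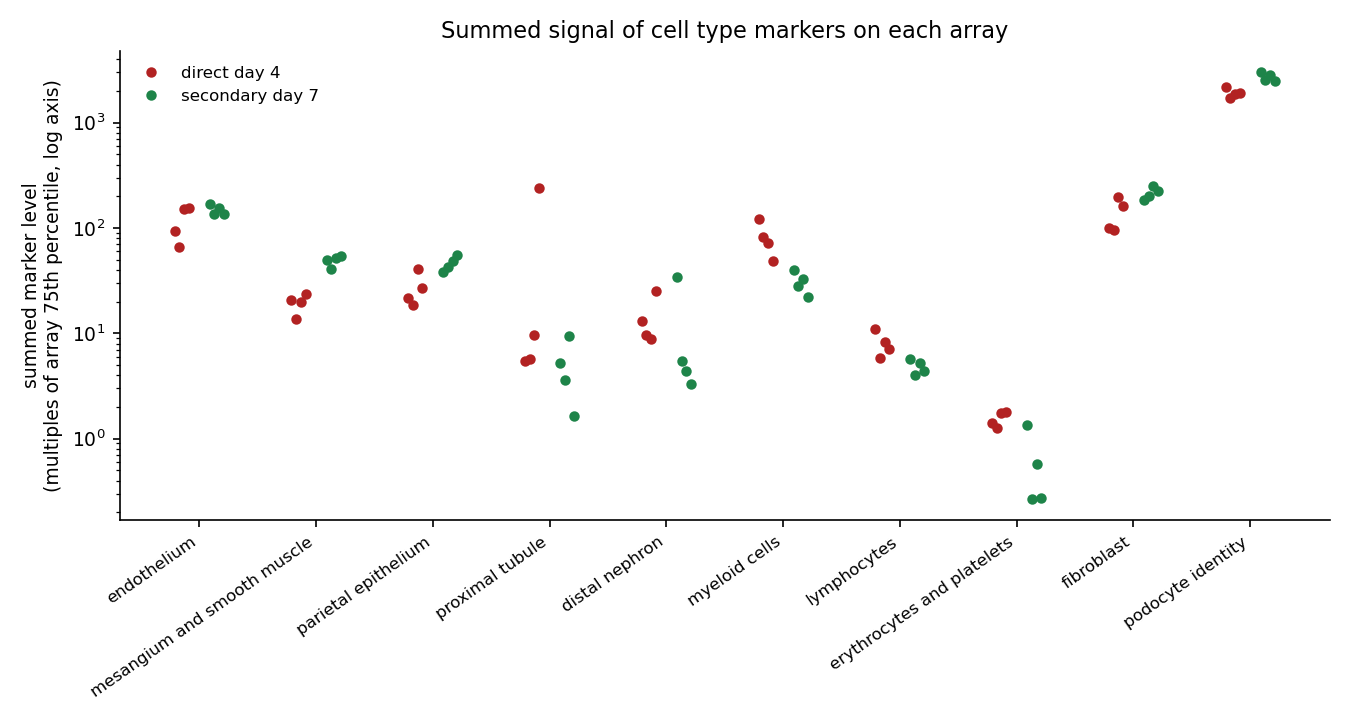
Summed linear signal of each cell type's markers (vertical axis, log scale, in units of the array's 75th percentile) on the 4 direct day 4 (red) and the 4 secondary day 7 arrays (green). Podocyte identity genes lie highest on every array, myeloid markers are higher on all direct arrays, and the proximal tubule sum of 238 in direct MC823 stands apart.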

How the data were processed

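RNA of sorted podocytes was hybridised to one-colour Agilent arrays (29 arrays from 16 mice), after TRIzol LS extraction and Low Input Quick Amp labelling of 0.1 µg with Cy3, per the labels' protocols. The intensity of each spot was read and background-subtracted with Agilent Feature Extraction 11.5.1.1 and deposited as a processed signal, per the file headers and the submitters' processing notes. The authors also deposited a matrix of log2 values, and their scaling is not stated in the labels. It served as an alternative, and 27 of its 29 columns matched their scanner files. Those columns differed from the values used here only by a constant for each array. As an alternative it therefore tested little beyond that shift and the day 7 columns of mouse MC221. No column belonged to an unmapped sample (0).

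From the scanner files, log2 of the processed signal was taken and the array's 75th percentile over the probes that are not controls was subtracted. Probes were kept if well above background on at least 3 arrays and were named through RefSeq accessions: 26582 of 55681 probes had 1 symbol, 29099 none and 0 several. The brightest probe stood for a gene, which gave 15626 genes. Group means were fitted to all 29 arrays with limma 3.58.1 in R 4.3.3, which was tested on simulated data, and p-values were adjusted by Benjamini-Hochberg over all genes. Python 3.11.15 with numpy 2.4.6, pandas 2.3.3 and matplotlib 3.10.9 served for tables and figures. Arrays give no read depth, and their number limits the precision. Each title names a mouse; p-values measure the spread between these samples. If a gene was above background on none of the lower group's arrays, "at least" folds compare the higher group's mean with the detection level of those arrays. Human CD25 could not be checked on these arrays.

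The members, the 41 gene lists and the rules were chosen with earlier results of these data known, so no list is independent evidence. Genes were named if fixed by name (Des, Synpo, Birc5, Nphs1, Podxl and Wt1), if among the 12 with the largest difference in each direction (no overlap, and all arrays of the higher group above background), if among up to 4 called members per list and direction, or if ranked among shared or opposite changes. Some genes named by the rule are left out for length or are not reported here. Exceptions chosen after their values were seen are Mki67, Cdk1, Cxcl10, Nfkb2, Relb, Icam1, Tgfb2, Eef2, Hspa5, Atf4 and the defining markers Ptprc, Adgre1, Csf1r, Lyz2, Tyrobp, Pecam1, Cdh5, Emcn, Lrp2 and Umod.

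The direct and secondary groups share no mice. Samples of both populations of a mouse form a replicate block, with a consensus correlation within mice of 0.596. Alternatives were the mouse as a random replicate block, the slide as a block, normexp background correction, quantile scaling, 2 other filters on dim probes, the mean of probes, the authors' matrix, only the groups compared in the fit, and each array left out in turn. Normexp was run on the median spot signal, because the scanner tables used hold that and not the mean.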

Additional observations from a re-analysis of the deposited data

Results flagged for a closer look

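In groups of 4, single arrays stood apart from the other 3 in 22 of the 392 sets of values examined (5.61%), and chance gives about 1 in 20. Among secondary samples, MC221 was at 6.44 for Podxl, 9.86 for Tagln, -4.30 for Lrrc24 and -2.53 for Nusap1, and it had the highest summed distal nephron signal (34.19). MC791 was at 9.02 for Gdpd2. MC824 was at 5.34 for Kirrel, 2.88 for Plce1 and -2.69 for Ccl5, and MC943 at -3.87 for Slc7a3 and 3.27 for Nfkb2.

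Among direct samples, MC151 was at -3.69 for Sprr1a, 8.33 for Thbs4 and 0.99 for Itgax. MC692 was at 0.25 for the chaperone gene Hspa1a and 5.52 for Nfkb2. MC822 was at -1.54 for Tnf, 3.12 for Pkp1 and -2.95 for Itga2b. MC823 was at -0.30 for Aif1 and 2.70 for Tgfb2, and its summed proximal tubule signal was 237.8 against 5.43 to 9.65 on the other direct arrays.

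The change from day 0 differed between direct and secondary podocytes by limma's test of that difference, higher in direct for 2433 genes and lower for 3832. The difference of the changes was -3.33 for Des, 7.33 for Birc5, -0.82 for Synpo, -0.85 for Nphs1 and -1.22 for Podxl.

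Data outside the main comparison also held signals. The authors' deposited column for the secondary sample MC221 correlated at 0.986 with that sample's own scanner file and at 0.993 with the closest other file, and the column of its TdTomato sample at 0.9927 and 0.9934, so which array belongs to which sample is not settled. In TdTomato podocytes of day 7, the lower of the 2 arrays was at 1.33 for Birc5 and at 0.86 for Des, above the highest TdTomato array of day 0 (-2.10 and -1.45).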

How the results depend on the processing

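The counts of genes higher and lower in direct than in secondary podocytes were 3273 and 5676 and stayed within 1.5 times of these in every alternative run, from 2587 and 5556 with normexp to 3750 and 6816 with the slide as a block. With the mouse as a random replicate block they were 3244 and 5797, and without 1 array 3042 to 3308 and 5079 to 5570. Against own day 0, leaving out 1 array gave 3084 to 3297 higher and 4952 to 5437 lower genes in direct podocytes. The comparison of both populations at day 4, from the same mice, gave 3284 higher and 6032 lower genes in TdTomato in the main fit, which ignores the pairing. With the mouse as a fixed replicate block, which uses the pairing, these counts were 3974 and 7506. The secondary changes from day 0 (834 higher, 300 lower) varied most. With the slide as a block they were 1436 and 1164, which moved the higher share of calls from 73.5% to 55.2%. Lower genes numbered 148 (680 higher) with only the groups compared, 467 with the authors' matrix, and without 1 array 161 to 288 (198 without day 0 MC742), with 615 to 861 higher. The difference of the changes gave 2248 to 2507 higher and 3105 to 3974 lower genes without 1 array. Its main fit (2433 and 3832) ignores that both day 0 populations came from the same mice. With the mouse as a random replicate block the counts were 2831 and 5042, and with the slide as a block 3008 and 5587. Of 158 named genes that were called, 8 lost the call under some alternative and 0 reversed. They were Podxl, Wt1, Lrrc24, Mad2l1, Fas, Plk2, Hrk and Pdia6. The authors' matrix, normexp and quantile scaling left the median difference of all genes at -0.31 to -0.22. Leaving out the TdTomato array of MC221, an alternative chosen after seeing the data, left 1 TdTomato array of day 7. The median change from day 0 there was then 1.34 in place of 1.33 for the 834 secondary risers. For the 905 genes higher in direct by 8-fold or more it was 2.50 in place of 2.52. Des changed by 2.81 in place of 2.59 and Acta2 by 3.26 in place of 2.76. With only 2 arrays such a shift can hardly exceed their spread, so its size is no test. Signal near background limits the genes given with "at least", and the causes of these shifts were not tested.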
